A study of Caenorhabditis elegans with 6 samples.

Results

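The histone genes of Caenorhabditis elegans were examined in poly(A) RNA of whole wild-type worms. They were taken as the protein-coding genes of the deposited gene table whose symbol is his- followed by a number, which gave 72 of 47656 listed genes and of 19998 listed protein-coding genes. A fixed list set 8 of them apart as variants (his-24, his-35, his-69, his-70, his-71, his-72, his-73 and his-74), and the other 64 were treated as replication-dependent copies. The study compared 3 libraries from worms given ilimaquinone, a quinone from marine sponges, at 100 µM with 3 vehicle libraries from worms kept without it. All worms were wild type and were treated from the last larval stage (L4) for 11 days. Animals of both groups were kept in complete S-Basal buffer that held ampicillin (100 µg/mL) and FUDR (200 µM). Nothing in the labels says that the libraries came from different cultures, so a p-value reflects just the spread among these libraries, which may be technical.

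Histones package DNA into nucleosomes. Each nucleosome core holds H2A, H2B, H3 and H4, and the linker histone H1 sits where DNA enters and leaves it. Most core histone genes are replication-dependent: they are present in many near-identical copies, lack introns, are expressed in S phase and give an mRNA that in animals typically ends in a stem-loop and not in a poly(A) tail. Replacement variants such as H3.3 are made also outside S phase from polyadenylated, usually spliced mRNAs. In adult worms the somatic cells no longer divide and the germline is the dividing tissue, and FUDR, given to both groups, inhibits DNA synthesis.

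The libraries held 32155192 to 39244786 estimated counts. Vehicle replicate 1 stood apart on principal component 1 of the log2 CPM values (81.1, against -40.9 to 17.3 for the other 5 libraries), and values that rest on it are given with and without it. CPM here means counts per 1000000 reads scaled by TMM factors, and TPM is the deposited value normalised for length and depth, used wherever levels of different genes are compared. Copies are nearly identical in sequence, and the sources used here do not say how reads matching several copies were counted, so the value of any single copy is uncertain and sums over copies are given beside it.

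Gene structure separated the members into a small spliced set and a large set of short genes. In the deposited table of transcripts, 64 of the 72 genes had a transcript exactly as long as their coding sequence, with a single exon in the Ensembl annotation of the same build, WBcel235. The other 8 genes have introns and UTRs there: his-24, his-35, his-71, his-72 and his-74 of the variant list, and his-37 (H4), his-41 (H2B) and his-57 (H2A), which the fixed list counted as replication-dependent. The structure of his-57 is less certain, since 1 of its 3 deposited transcripts has 384 bases, the coding length of the other replication-dependent H2A genes. That transcript had 10, 27 and 2 counts with ilimaquinone and 1, 1 and 2 with vehicle. The longer his-57 transcripts reach into klp-12 and T01G1.4 on the other strand (means of 4162.2 and 4789.3 counts), so reads there may belong to any of them. The variants his-69, his-70 and his-73 were coding-only. The 72 genes lay at 18 loci, taken as runs of members less than 20000 bases apart. Of the coding-only genes 58 stood in 29 head-to-head pairs, in which neighbouring genes are read away from each other. The pairs were 14 of H2A with H2B, at 227 to 327 bases between the coding sequences, 14 of H3 with H4, at 234 to 321 bases, and 1 of H4 with H2A (his-67 and his-68, 368 bases).

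Levels followed this structure in most genes. The 6 most abundant members were all spliced, with mean TPM over the 6 libraries of 555.9 for his-72, 498 for his-24, 323 for his-35, 309 for his-37, 237 for his-41 and 211 for his-71. The highest coding-only gene, his-13, reached a mean of 56.5 TPM, above the spliced his-74 at 34.1 TPM and his-57 at 2.04 TPM. A single cluster of 13 coding-only genes on chromosome II (13817760 to 13828697) ranged from 7.02 TPM (his-42) to 56.5 TPM. The remaining 51 coding-only genes lay between 0.0845 and 5.31 TPM, and 17 of them were under 1 TPM. The chromosome II cluster held 86.1%, 85.2% and 84.7% of the counts of all coding-only members in ilimaquinone replicates 1, 2 and 3, against 83.9%, 83.3% and 89.4% in vehicle replicates 1, 2 and 3. Thus 48 replication-dependent coding-only genes elsewhere, and 3 coding-only variants, shared the small rest.

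**Figure D1:**
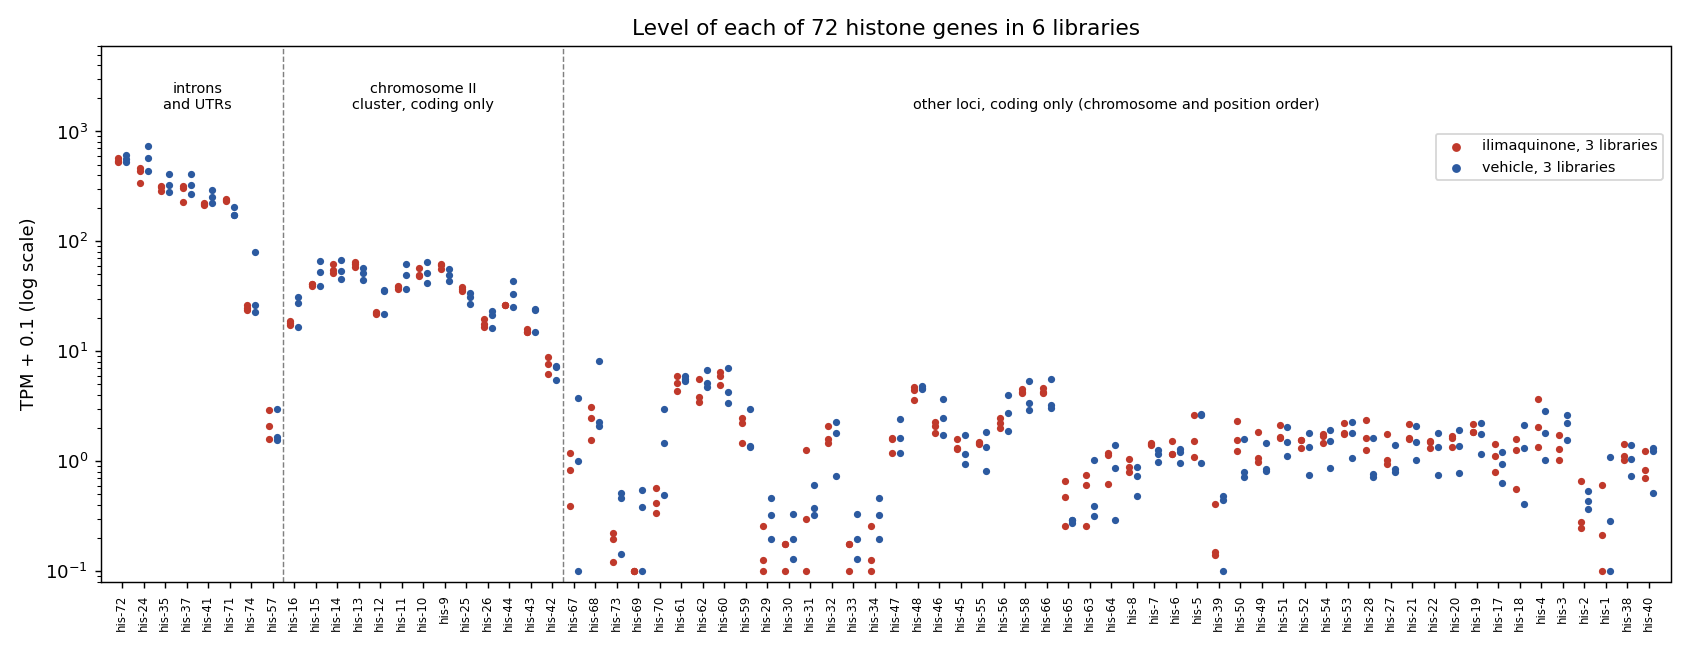
Deposited TPM plus 0.1 (log axis) of all 72 histone genes, with 1 point per library (ilimaquinone left, vehicle right) and genes split by structure and locus. Spliced genes other than his-57 and his-74 lie above all coding-only genes, and the chromosome II cluster, from 7.02 to 56.5 TPM on average, lies above the coding-only genes of other loci.

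Coding-only genes made up a minor share of histone RNA in every library. Their share of summed histone TPM was 19.97%, 20.98% and 20.97% in ilimaquinone replicates 1, 2 and 3, and 24.96%, 15.2% and 18.8% in vehicle replicates 1, 2 and 3. These are shares of the RNA captured by poly(A) selection, and not of the RNA in the cells. Whether the coding-only reads came from RNA without a poly(A) tail was not measured. RNA classes listed as lacking such a tail were present in all libraries. Ribosomal RNA genes summed to 1309, 1501 and 1562 CPM with ilimaquinone and to 1828, 1599 and 2191 CPM with vehicle. Small nuclear RNA genes summed to 1.81 to 2.88 CPM with ilimaquinone and 2.26 to 2.63 CPM with vehicle. The sums were 24.8 to 29.1 and 23.7 to 33.4 CPM for small nucleolar RNA genes, and 2.71 to 3.58 and 3.21 to 4.70 CPM for transfer RNA genes. The ribosomal sums of the groups did not overlap, and their part in the coding-only values was not tested.

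The comparison of ilimaquinone with vehicle asks whether these genes respond to the compound. No histone gene passed the edgeR quasi-likelihood test (Benjamini-Hochberg adjusted p under 0.05 over all genes): 0 of 55 tested members were called, beside 1.47% of all 16502 tested genes (1.14% higher and 0.327% lower with ilimaquinone). DESeq2 called 0 of 56 members with an adjusted p, beside 10.8% of all genes (5.38% higher and 5.39% lower). At an unadjusted p under 0.05, edgeR had 1 of 55 members (1.82%), beside 21.9% of all tested genes, and DESeq2 had 3 of 72 (4.17%), beside 16.1%. The 3 ilimaquinone libraries lay wholly on 1 side of the 3 vehicle libraries for 5 members (9.09%), beside 30.8% of all tested genes. The other 17 members, 14 replication-dependent copies and 3 variants, were too low to test, with at most 30 counts in any library. Log2 fold changes of the tested members ran from -0.77 to 0.80, with a median of 0.11, beside -0.02 for all tested genes. Of these members 29 were positive (52.7%) and 26 negative, beside 48.0% positive of all tested genes. In simulated counts for this comparison the test recovered 31% of genes changed 2-fold and 68% of those changed 4-fold, so the absence of a call does not show equal levels.

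**Figure D2:**
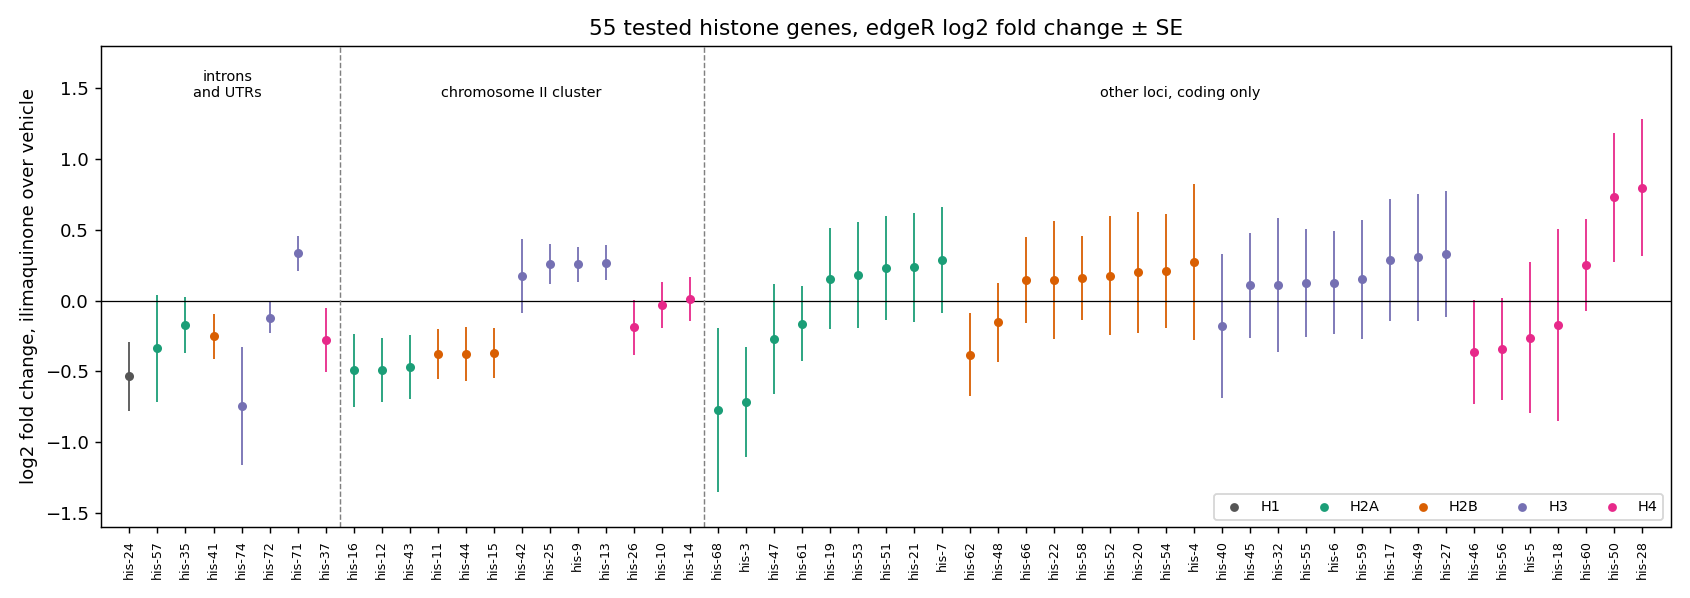
Log2 fold change of ilimaquinone over vehicle with its standard error from edgeR (y axis) for the 55 tested histone genes, coloured by histone class and split by structure and locus. In the chromosome II cluster the 3 H2A and 3 H2B copies lie at -0.49 to -0.37 and the 4 H3 copies at 0.17 to 0.27, and none of the 55 passed the test.

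The H3.3 genes differed among themselves in their values. H3.3 replaces H3 in chromatin outside replication. The gene his-71 (gene 181057, chromosome X, 7965090 to 7985659, up to 3 exons) had 133, 131 and 129 CPM in ilimaquinone replicates 1, 2 and 3, against 86.8, 119 and 106 CPM in vehicle replicates 1, 2 and 3. All ilimaquinone libraries lay above all vehicle libraries, and vehicle replicate 1 was the lowest. It averaged 131 ± 1.70 CPM with ilimaquinone and 103.7 ± 16.03 CPM with vehicle (SD, n = 3 each), a log2 fold change of 0.33 ± 0.12 (SE) with an unadjusted p of 0.0314 and an edgeR adjusted p of 0.193. It was the 1 member under 0.05 without adjustment in edgeR. With vehicle replicate 1 left out it stood at 0.22 on the log2 scale (edgeR adjusted p = 0.156). Its deposited locus is longer than the Ensembl gene (7981382 to 7982070) and spans F45E1.5 on the other strand, which had a mean of 187.3 counts.

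The paralog his-72 (gene 176660, chromosome III, 12363901 to 12369337) had 263, 245 and 269 CPM with ilimaquinone and 255, 271 and 319 CPM with vehicle. The groups overlapped, and the log2 fold change was -0.12 ± 0.11 (edgeR adjusted p = 0.523). Per length, his-71 stood at 0.447, 0.443 and 0.408 of the his-72 TPM with ilimaquinone and at 0.310, 0.392 and 0.288 with vehicle, values that did not overlap and were not tested. The transcript table divides his-72 into a transcript of 940 bases and one of 456 bases. The longer one had 128, 95.9 and 113 CPM with ilimaquinone, against 133, 136 and 146 CPM with vehicle, and the shorter one had 135, 149 and 156 CPM against 122, 135 and 173 CPM. The first set of values did not overlap between groups and the second did. The sources used here do not state how the authors assigned reads to transcripts. The deposited his-72 locus, which the longer transcript spans, is longer than the Ensembl gene (12367475 to 12369050). It lies within glrx-5 on the same strand, which had a mean of 679 counts, so reads there may belong to either gene.

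The H3.3-like gene his-74 (gene 179734, chromosome V, 12659704 to 12660330) had 11.7, 10.8 and 12.5 CPM with ilimaquinone, against 34.1, 11.0 and 13.6 CPM with vehicle. A single library, vehicle replicate 1, was high, and the other 5 lay between 10.8 and 13.6 CPM. The log2 fold change of -0.74 ± 0.41 (edgeR adjusted p = 0.325) was -0.08 without that library. The his-74 locus lies within ccch-3 on the same strand, which had a mean of 259.8 counts, so reads there may belong to either gene. Summed over his-71, his-72 and his-74, the H3.3 genes stood at 407, 386 and 410 CPM with ilimaquinone and 376, 401 and 438 CPM with vehicle. The coding-only variants were barely detected. The H3.3-like gene his-70 had 7, 4 and 3 counts with ilimaquinone and 30, 5 and 16 with vehicle, with an unadjusted p of 0.0384 in DESeq2 (adjusted p = 0.170), and it was too low for the edgeR test. The putative H3.3-like gene his-69 had 0 counts in all 3 ilimaquinone libraries and 5, 0 and 3 counts in the vehicle libraries. A count of 0 allows up to 3 counts, or 0.0777 to 0.0928 CPM in the ilimaquinone libraries. The gene his-73, listed as a histone-domain protein, had 1 or 2 counts in every library.

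The linker histone gene his-24 (gene 181545, chromosome X, 14490094 to 14491844) encodes an H1 and was the tested member with the smallest edgeR p (0.0669) among those with a negative fold change. It had 358, 331 and 262 CPM in ilimaquinone replicates 1, 2 and 3, against 306, 592 and 482 CPM in vehicle replicates 1, 2 and 3. Vehicle replicates 2 and 3 were above all other libraries, while vehicle replicate 1 lay within the ilimaquinone range, so the groups overlapped. It averaged 317 ± 49.9 CPM with ilimaquinone and 460 ± 145 CPM with vehicle (SD, n = 3 each), or -0.54 ± 0.25 on the log2 scale (edgeR adjusted p = 0.255, DESeq2 unadjusted p = 0.0429 and adjusted p = 0.182). Without vehicle replicate 1 the log2 fold change was -0.76 ± 0.15 with an edgeR adjusted p of 0.0505, and without vehicle replicate 2 it was -0.33 with an edgeR adjusted p of 0.367.

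**Figure D3:**
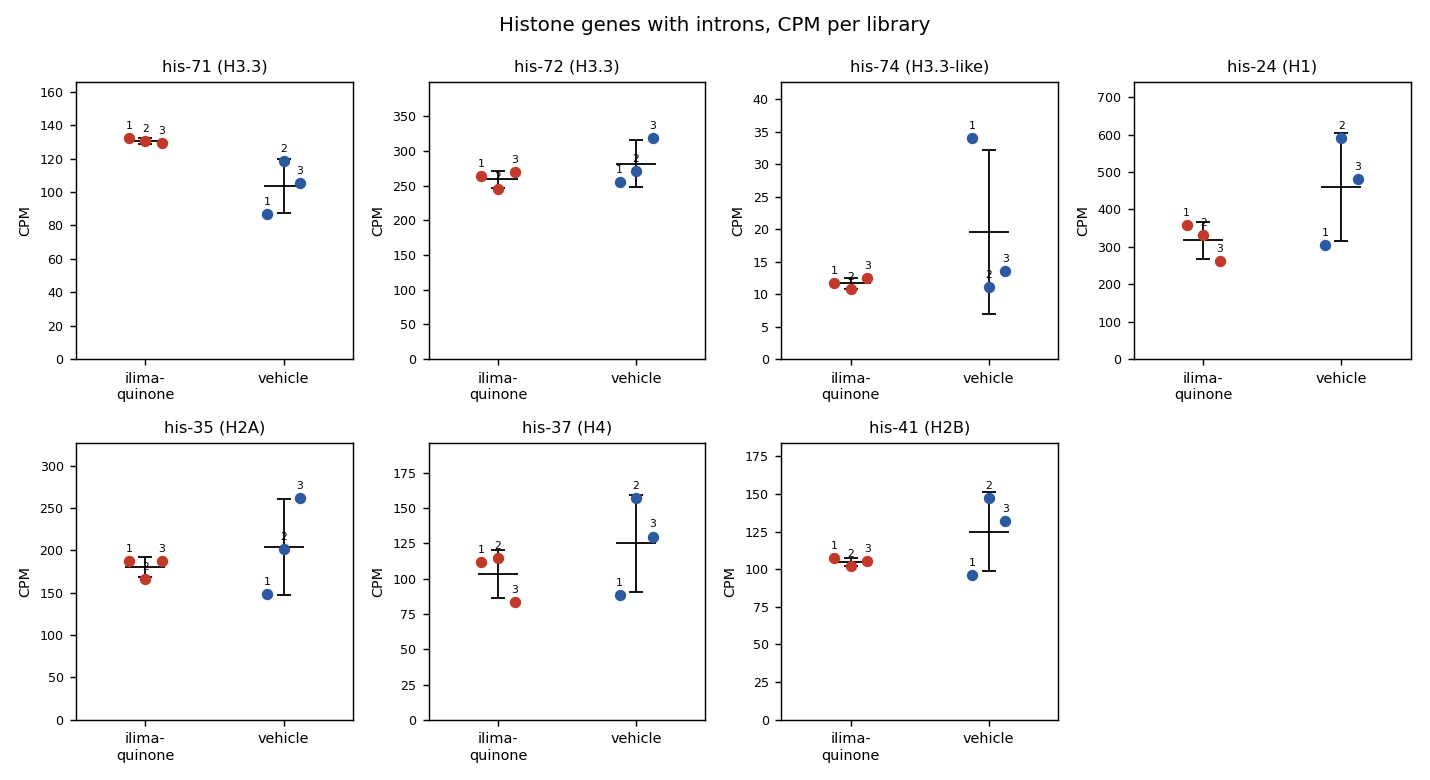
CPM of 7 histone genes with introns in each library (numbered points, ilimaquinone left and vehicle right), with bars for the mean and SD of 3 libraries. In his-71 the 3 ilimaquinone points lie above the vehicle points, in his-74 vehicle replicate 1 stands alone at 34.1 CPM, and in his-24, his-35, his-37 and his-41 vehicle replicate 1 is the lowest vehicle point.

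The core histone genes his-35, his-37 and his-41, all with introns, lie together on chromosome V. The H2A gene his-35 (9544667 to 9549050) had 188, 166 and 187 CPM with ilimaquinone, against 148, 201 and 261 CPM with vehicle. The H4 gene his-37 (9547083 to 9547609) had 112, 114.7 and 83.4 CPM with ilimaquinone, against 88.4, 157 and 130 CPM with vehicle. The H2B gene his-41 (9545522 to 9549739) had 107, 102 and 105 CPM with ilimaquinone, against 96.0, 147 and 132 CPM with vehicle. In each of them vehicle replicate 1 was the lowest vehicle library and the groups overlapped, while the highest library was vehicle replicate 3 for his-35 and vehicle replicate 2 for his-37 and his-41. The log2 fold changes were -0.17 ± 0.20 for his-35, -0.28 ± 0.23 for his-37 and -0.25 ± 0.16 for his-41 (edgeR adjusted p = 0.617, 0.484 and 0.368). Without vehicle replicate 1, his-41 was the 1 of 56 tested members called (1.79%, beside 4.36% of all tested genes in that fit, 2.7% higher and 1.67% lower), at -0.41 ± 0.07 on the log2 scale (edgeR adjusted p = 0.0362). In the same fit his-37 had -0.48 ± 0.16 (adjusted p = 0.147) and his-35 had -0.36 ± 0.13 (adjusted p = 0.168). Values moved the other way without another library: his-37 stood at -0.097 and his-41 at -0.14 without vehicle replicate 2, and his-35 at 0.035 without vehicle replicate 3. The deposited loci of these genes overlap one another and nstp-10, although the Ensembl genes at 9544659 to 9545288 (his-35), 9545536 to 9546264 (his-41) and 9547105 to 9547607 (his-37) are separate. The gene his-35 is on the minus strand and the other two on the plus strand, and no source used here states whether counting used strand, so reads of an overlap may belong to either gene.

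The replication-dependent cluster on chromosome II gave different values by histone class. Class values of copies at other loci, whose sums overlapped between groups in every class, are given below. It holds 3 copies of H2A, 3 of H2B, 4 of H3 and 3 of H4. The H2A copies (his-12, his-16 and his-43) summed to 16.9, 16.8 and 17.8 CPM in ilimaquinone replicates 1, 2 and 3, against 24.3, 17.2 and 30.7 CPM in vehicle replicates 1, 2 and 3. The H2B copies (his-11, his-15 and his-44) summed to 32.1, 30.7 and 30.7 CPM against 46.3, 31.3 and 43.8 CPM. For both classes vehicle replicates 1 and 3 were above every ilimaquinone library, while vehicle replicate 2 lay at their level. The H3 copies (his-9, his-13, his-25 and his-42) showed the other direction, with 57.1, 55.7 and 52.1 CPM with ilimaquinone against 45.9, 41.7 and 50.3 CPM with vehicle, and these sums did not overlap. The H4 copies (his-10, his-14 and his-26) summed to 30.5, 34.3 and 30.2 CPM with ilimaquinone and to 35.3, 27.0 and 34.96 CPM with vehicle, which overlapped.

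Single genes of the cluster followed their class, though reads shared among copies tie their values together. The H3 gene his-13 (chromosome II, 13820210 to 13820620) had 20.99, 21.04 and 19.5 CPM with ilimaquinone against 17.1, 15.5 and 18.5 CPM with vehicle, groups that did not overlap, or 0.27 ± 0.12 on the log2 scale (edgeR adjusted p = 0.253). Its head-to-head partner, the H4 gene his-14 (13819626 to 13819937), lies 272 bases away. It had 14.0, 15.3 and 13.1 CPM with ilimaquinone against 15.4, 11.9 and 14.9 CPM with vehicle, or 0.01 ± 0.15 on the log2 scale (edgeR adjusted p = 0.971), a value whose sign depended on the scaling. The H3 genes his-9 and his-25 had log2 fold changes of 0.26 and 0.26, also without overlap, and his-42 had 0.17 with overlapping groups. The other H4 genes, his-10 and his-26, had -0.03 and -0.19. In the pair 227 bases apart, the H2A gene his-16 (13817760 to 13818143) had 5.39, 5.66 and 5.68 CPM with ilimaquinone against 7.64, 5.41 and 10.5 CPM with vehicle, and the H2B gene his-15 (13818371 to 13818739) had 12.4, 11.9 and 11.8 CPM against 17.7, 12.04 and 16.9 CPM. Their log2 fold changes were -0.49 ± 0.26 and -0.37 ± 0.18 (edgeR adjusted p = 0.296 and 0.264). The H2A gene his-12 had -0.49 ± 0.23 (edgeR adjusted p = 0.257), and all 6 H2A and H2B copies lay between -0.49 and -0.37. Without vehicle replicate 2 the values of these 6 genes reached -0.54 to -0.72 (edgeR adjusted p = 0.0859 to 0.102), and none was called, beside 0.836% of all tested genes in that fit (0.688% higher and 0.148% lower). Each had an unadjusted p under 0.05 there, as had 9 of 56 tested members (16.1%) and 29.0% of all tested genes. Without vehicle replicate 3 the value was -0.24 for his-16 and -0.30 for his-12, and without vehicle replicate 1 it was -0.27 for his-15.

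Ratios between histone classes within the cluster were also described. The ratio of summed H3 TPM to summed H2A TPM was 3.15, 3.09 and 2.73 in ilimaquinone replicates 1, 2 and 3, against 1.76, 2.27 and 1.53 in vehicle replicates 1, 2 and 3. The ratio of H3 to H2B was 1.60, 1.63 and 1.52 with ilimaquinone and 0.890, 1.20 and 1.03 with vehicle. The ratio of H4 to H2B was 1.12, 1.32 and 1.16 with ilimaquinone and 0.903, 1.02 and 0.944 with vehicle. These 3 ratios did not overlap between groups, whereas that of H2A to H2B, 0.508, 0.527 and 0.557 with ilimaquinone and 0.505, 0.529 and 0.674 with vehicle, did. Ratios within a library do not depend on its scaling, but they were looked at after the values of the copies were known and were not tested. Coding sequences of different classes differ in sequence and length, and how that bears on capture and counting was not tested.

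**Figure D4:**
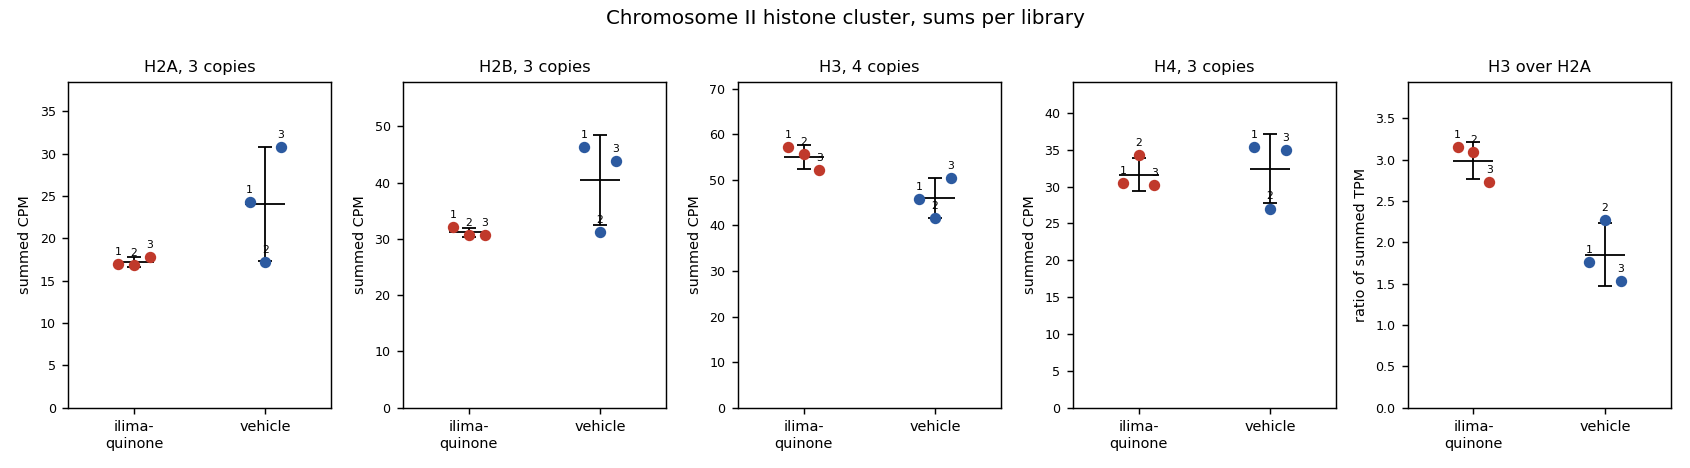
Summed CPM of the H2A, H2B, H3 and H4 copies of the chromosome II cluster, and the ratio of summed H3 to summed H2A TPM, in each library (numbered points, ilimaquinone left and vehicle right, bars for mean and SD of 3 libraries). The H3 sums, at 52.1 CPM or more with ilimaquinone and 50.3 CPM or less with vehicle, and the ratio do not overlap between groups, and vehicle replicate 2 lies near the ilimaquinone libraries for H2A and H2B.

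Copies at the other loci were low and could hardly be told apart. The H2B genes his-20, his-22, his-52 and his-54 on chromosome V each had 17 to 19, 12 to 14 and 16 to 19 counts in ilimaquinone replicates 1, 2 and 3, against 17 or 18, 14 to 16 and 7 or 8 counts in vehicle replicates 1, 2 and 3. Among 52 coding-only copies with a mean of at least 5 counts, 22 had a partner of the same class whose counts differed by at most 2 counts or 10% in every library, and 8 of these 13 pairs joined copies at different loci. Summed over the 48 replication-dependent coding-only genes outside chromosome II's cluster, the level was 21.8, 23.7 and 23.6 CPM with ilimaquinone and 28.1, 23.4 and 18.3 CPM with vehicle. Of 34 tested genes among them 23 had a positive and 11 a negative log2 fold change, beside 48.0% positive of all tested genes. Copies with near-equal counts are not separate observations, and the CPM sum of the set had a log2 ratio of -0.016. By class, the CPM sums of H2A, H2B, H3 and H4 had log2 ratios of -0.16, 0.005, 0.14 and 0.02, and the groups overlapped in each. Median log2 fold changes were 0.16, 0.16, 0.13 and -0.17, beside -0.49, -0.38, 0.26 and -0.03 in the chromosome II cluster. The H2A gene his-3 was the 1 of the 34 without overlap, at -0.71 ± 0.39 and 11 to 16 counts with ilimaquinone against 16 to 28 with vehicle (edgeR adjusted p = 0.316). The H4 genes his-28 and his-50 had the largest positive values, 0.80 ± 0.48 and 0.73 ± 0.45, on 6 to 19 counts a library, and their groups overlapped. The H2A gene his-68 had the lowest value, -0.77 ± 0.58, on 29, 15 and 34 counts with ilimaquinone and 80, 22 and 23 with vehicle, and stood at 0.04 without vehicle replicate 1.

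The sums of both classes were lower on average with ilimaquinone, with groups that overlapped in CPM. The 64 genes of the fixed replication-dependent class summed to 378, 379 and 344 CPM with ilimaquinone and 366, 445 and 441 CPM with vehicle, or 367 ± 19.7 and 417 ± 44.8 CPM (SD, n = 3 each), a log2 ratio of -0.19. In summed TPM the same class stood at 1049, 1089 and 957 with ilimaquinone and 1163, 1158 and 1124 with vehicle, which did not overlap. Spliced genes held most of the CPM sum: his-37, his-41 and his-57 made up 220, 218 and 190 CPM of it with ilimaquinone and 186, 305 and 263 CPM with vehicle. Their share of the TPM sum, which allows for length, was smaller than their share of the CPM sum in every library. In TPM they stood at 526, 539 and 447 with ilimaquinone and 492, 707 and 578 with vehicle. Without these spliced genes the class summed to 158, 161 and 154 CPM with ilimaquinone and 180, 141 and 178 CPM with vehicle, a log2 ratio of -0.07. The 8 variants summed to 953, 884 and 859 CPM with ilimaquinone and 830, 1194 and 1182 CPM with vehicle, or 899 ± 48.9 and 1069 ± 207 CPM (SD, n = 3 each), a log2 ratio of -0.25 that was -0.07 without his-24. In whole worms, fewer cells of a type and less RNA per cell cannot be told apart in any of these values.

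Other histone genes, chosen as a list, also gave no call over all genes in edgeR. Of 11 (htz-1, hcp-3, cpar-1 and hil-1 to hil-8), 1 was higher and 4 lower at an unadjusted p under 0.05, beside 21.9% of all tested genes in either direction, and DESeq2 called hil-1 higher and hil-6 lower, beside 10.8% of all genes. The median log2 fold change was -0.60, and -0.32 without vehicle replicate 1. The hil genes encode H1-like linker histones. The gene hil-6 had 0.311, 0.155 and 0.329 CPM with ilimaquinone against 1.12, 2.57 and 1.32 CPM with vehicle, or -2.63 ± 0.50 on the log2 scale (edgeR adjusted p = 0.0641, or 0.0281 without vehicle replicate 1). The gene hil-1 had 189, 194 and 186 CPM with ilimaquinone against 82.1, 135 and 148 CPM with vehicle, at 0.64 ± 0.21 (edgeR adjusted p = 0.169, or 0.0388 without vehicle replicate 1). The H2A.Z gene htz-1 had 70.1, 59.9 and 77.2 CPM with ilimaquinone and 151, 77.1 and 81.5 CPM with vehicle, and the centromeric H3 gene hcp-3 had 12.9, 11.7 and 15.2 CPM with ilimaquinone and 33.6, 12.7 and 14.1 CPM with vehicle. Vehicle replicate 1 was the highest library for both, and their log2 fold changes were -0.58 ± 0.27 and -0.60 ± 0.38 (edgeR adjusted p = 0.258 and 0.373). Without that library they were -0.20 and -0.018.

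Genes that process, assemble or accompany histones during S phase had lower fitted values with ilimaquinone that rested largely on vehicle replicate 1. The gene cdl-1, which encodes the protein that binds the stem-loop of replication-dependent histone mRNAs, had 47.0, 36.7 and 47.2 CPM with ilimaquinone against 122, 49.0 and 54.7 CPM with vehicle. The groups did not overlap, and the log2 fold change was -0.78 ± 0.35 (edgeR adjusted p = 0.246), or -0.25 without vehicle replicate 1. None of 14 genes of mRNA 3′ end and small RNA processing, none of 17 histone chaperone and assembly genes and none of 33 S phase genes passed edgeR or DESeq2, with 1, 1 and 3 genes lower and none higher at an unadjusted p under 0.05 in edgeR, beside 21.9% of all tested genes in either direction. Those with the smallest p were ego-1, an RNA-directed RNA polymerase gene, at -0.83 ± 0.33, nasp-2, a histone chaperone gene, at -1.22 ± 0.50, and the cyclin B gene cyb-1, at -1.17 ± 0.47 (edgeR adjusted p = 0.208, 0.220 and 0.213). Without vehicle replicate 1 they stood at -0.38, -0.37 and -0.43. The S phase list held other cell cycle genes such as cyb-1 and was not confined to S phase. The list medians of -0.18, -0.33 and -0.59 were 0.06, 0.02 and -0.11 without vehicle replicate 1.

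Markers of the germline were far higher in vehicle replicate 1 than in the other libraries, and the coding-only histones were highest there by a smaller margin that depended on the unit. The 31 oocyte and germline markers summed to 1066, 878 and 1226 CPM in ilimaquinone replicates 1, 2 and 3, against 4753, 1356 and 1555 CPM in vehicle replicates 1, 2 and 3. All 31 had a negative log2 fold change, with 0 called by edgeR, 23 under an unadjusted p of 0.05 and 16 called lower by DESeq2, beside 21.9% of all tested genes under that p in edgeR and 5.39% called lower by DESeq2. Their median log2 fold change was -1.49, and -0.55 without vehicle replicate 1. The 33 S phase genes summed to 1056, 938 and 1133 CPM with ilimaquinone and 2583, 1084 and 1154 CPM with vehicle. The coding-only histone genes summed to 159, 161 and 154 CPM with ilimaquinone and 181, 141 and 179 CPM with vehicle, so that vehicle replicates 1 and 3 were close. In summed TPM they stood at 523, 550 and 511 with ilimaquinone and 674, 452 and 547 with vehicle, and vehicle replicate 1 was above every other library. The copies outside the chromosome II cluster were also highest there, at the 28.1 CPM given above. The gene his-74 was high in the same library as the germline markers. Among vehicle libraries, his-71, his-72, his-24, his-35, his-37 and his-41 were lowest there in CPM, as were the neuron, muscle and intestine sums. In TPM, his-72 was lower in vehicle replicate 2 (525) than in vehicle replicate 1 (561), and his-71 was nearly equal in vehicle replicates 1 and 3 (173.8 and 174.7). The 13 neuron markers summed to 4073, 4029 and 3584 CPM with ilimaquinone, and to 2246, 3883 and 3856 CPM with vehicle. The 40 sperm markers summed to 40.4, 53.9 and 111 CPM with ilimaquinone and 471, 89.7 and 190 CPM with vehicle, and of the 36 tested 30 were lower at an unadjusted p under 0.05, 1 was called lower by edgeR (beside 0.327% of all tested genes) and 21 by DESeq2. The median log2 fold change of the sperm markers was -1.87, and -1.06 without vehicle replicate 1. Muscle markers (7 genes) summed to 4374 to 4541 CPM with ilimaquinone and to 3733, 4638 and 4603 CPM in vehicle replicates 1, 2 and 3. The 7 intestine markers found summed to 2563 to 2833 CPM with ilimaquinone and to 2625, 3516 and 2919 CPM with vehicle. The 4 hypodermis markers summed to 78.0 to 137 CPM with ilimaquinone and to 158, 83.1 and 39.6 CPM with vehicle, highest in vehicle replicate 1. The part of these cell types in the histone values was not tested.

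**Figure D5:**
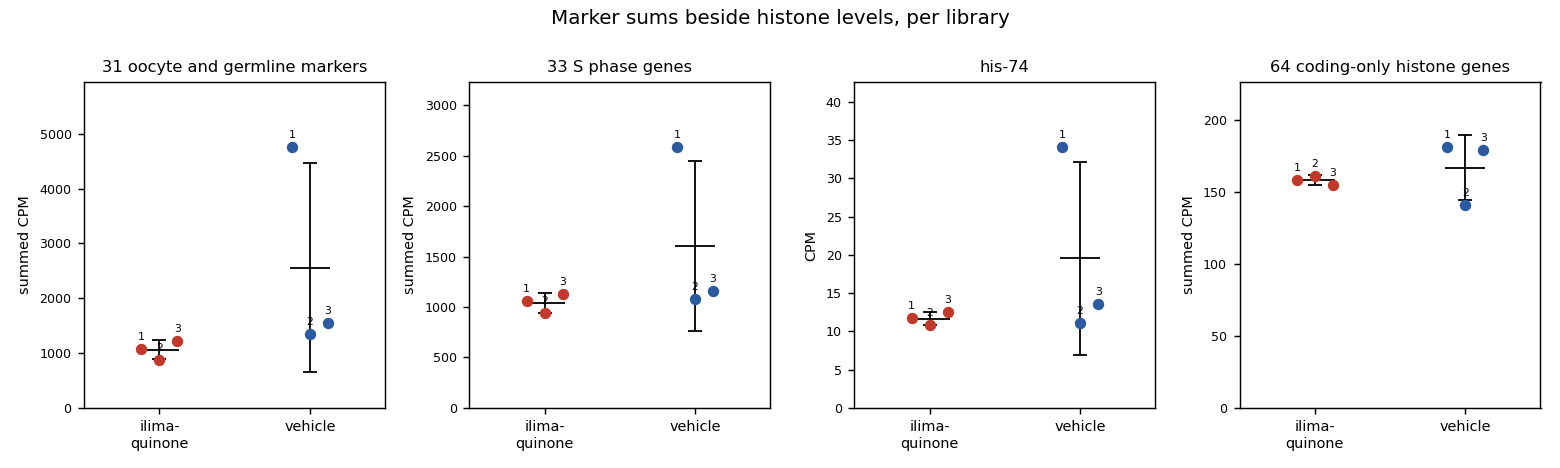
Summed CPM of oocyte and germline markers, of S phase genes and of the 64 coding-only histone genes, and CPM of his-74, in each library (numbered points, ilimaquinone left and vehicle right, bars for mean and SD of 3 libraries). Vehicle replicate 1 stands far above the other libraries for the markers, the S phase genes and his-74, while the coding-only histones stand at 181 CPM there and 179 CPM in vehicle replicate 3, which in the deposited TPM are 674 and 547.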

How the data were processed

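Poly(A) RNA-seq libraries of 6 whole-worm samples, 3 per group, were prepared separately with a stranded mRNA kit, per the labels' protocols. HISAT2 2.1.0, SAMtools 1.9 and bcl2fastq 2.20.0 and the build WBcel235 are named in the submitters' processing notes. No source used here names the counting program, its use of strand or its treatment of reads matching several copies. The authors deposited read counts, here called estimated counts because the counting program is unknown (all were whole numbers and needed no rounding), and TPM values, per the file headers, for genes and transcripts. Deposited FPKM values were not used.

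Counts were fitted in R 4.3.3 with edgeR 4.0.16 over all genes (filterByExpr, TMM, glmQLFit, glmQLFTest, no covariate), 16502 genes tested, with 24 rows lacking a symbol, 0.0119% to 0.0219% of counts, left out. Each standard error is |log2 fold change| / sqrt(F). In counts simulated from the real means (16258 genes), 7.48% of calls were unchanged genes. Gene structure came from Ensembl release 115, matched by WormBase identifier for 72 of 72 members, of which 66 had the same start and end as the deposited locus. Core class came from the deposited description. Alternatives were DESeq2 1.42.0, other scalings and filters, limma 3.58.1 trend on log2(TPM + 1), the replicate number as a block, and leaving out each library. Floors cover counting error only, while standard errors and SDs also reflect the spread among libraries.

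The members, lists and tests were chosen with earlier results of these data known. Genes named by rule were the variants, the 2 most abundant replication-dependent genes per class, the smallest p in each direction, genes called in any of edgeR, DESeq2 or a fit without a library, cdl-1, htz-1, hcp-3, and the smallest p of each list. Others, such as his-57, his-3, his-28, his-50, hil-1 and the remaining chromosome II copies, were named after their values were seen.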

Additional observations from a re-analysis of the deposited data

How the results depend on the processing

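No histone gene was called under any alternative tried except without vehicle replicate 1, where the count was 1 (his-41, log2 fold change -0.41, edgeR adjusted p = 0.0362), so that leaving out a library gave 0 to 1 calls. The median log2 fold change of tested histone genes, 0.11, was -0.084 with DESeq2, -0.077 without a filter on low counts and -0.19 with the stricter filter, settings that test other numbers of copies, and -0.078 to 0.083 when a library was left out. The value of his-14, 0.01, turned to -0.00024 with DESeq2 size factors, -0.0066 with upper-quartile factors, -0.015 with library size alone, -0.015 with the stricter filter, -0.11 without vehicle replicate 2 and -0.042 without ilimaquinone replicate 2 (range -0.11 to 0.077 when a library was left out), and that of his-35 to 0.035 without vehicle replicate 3 (range -0.36 to 0.035), and the cause was not tested. The other 174 values of named genes kept their sign and side of the threshold. The summed levels kept their sign throughout, at -0.27 to -0.14 for the replication-dependent and -0.40 to -0.16 for the variant class when a library was left out, and moving his-37, his-41 and his-57, a setting chosen after seeing the data, moved neither by more than the spread between libraries.

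No consistent pairing by the replicate numbers of the titles was seen: deviations of same-numbered libraries correlated at -0.148, 0.391 and -0.216 across genes. Deviations from a mean of 3 libraries constrain each other, so this check cannot exclude a pairing. With the replicate block 0 histone genes were called, the median was 0.13, and named genes had edgeR adjusted p from 0.262 to 0.965. Low copies are limited by depth, since 17 members had at most 30 counts in a library.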
